A study of Homo sapiens with 15 samples.

Results

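The MCM helicase family was followed by RNA sequencing across 6 groups of cells labelled as U2OS. Its members were taken by gene symbol: MCM2, MCM3, MCM4, MCM5, MCM6, MCM7, MCM8, MCM9 and MCM10, 9 of the 23368 genes in the deposited table. All 9 were listed and all 9 passed the filter on low values, as did 14298 genes in all. U2OS is an established osteosarcoma line with wild-type p53. Nutlin, an antagonist of the p53-degrading ubiquitin ligase MDM2, was used at 10 µM (the unit's prefix was lost in the labels and is read as micro), and DMSO alone was the control. Asynchronous cells gave 3 DMSO and 3 Nutlin libraries, with a Nutlin exposure whose length the sources do not give. Non-released cells (2 DMSO and 2 Nutlin libraries) were held in a double thymidine block, in which 2 mM thymidine was given for 16 h on both occasions with 8 h between them, and Nutlin or DMSO was added 4 h before the time of release. S-phase cells (3 DMSO and 2 Nutlin libraries) went through the same block and addition, were washed free of thymidine and were harvested 4 h later with Nutlin still present. All groups are labelled as 1 cell line, and the markers of 1 library that stands apart are given below. Nothing in the labels ties a replicate to a culture of its own, and the spread behind the p-values may therefore be technical.

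MCM2 to MCM7 form a ring-shaped hexamer that is loaded onto origins of replication in G1 and unwinds DNA at the fork in S phase. ORC, CDC6 and CDT1 load it, CDC7 with DBF4 phosphorylates it, and CDC45 and the GINS complex turn it into the active helicase. MCM10 is not part of the ring and is needed to activate it. MCM8 and MCM9 form a separate helicase that acts in homologous recombination. The genes of the hexamer and MCM10 are textbook targets of the E2F factors and of the DREAM repressor complex, through which p53 and its target p21 act on genes of the G1/S transition.

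Promoter sequences show which members carry letters of an E2F-type site close to their start. RefSeq windows on GRCh38.p14, from 250 bases before to 50 bases after a start, were matched by symbol for 7 members, with 9 windows in all because MCM7 has more than 1 start. The E2F-type letters searched, on both strands, were TTTGGCGC, TTTCGCGC, TTTCCCGC and TTTGCCGC, of which the first and second can overlap on opposite strands. They were found in 5 members (MCM2, MCM3, MCM6, MCM7 and MCM8), in 1 window of each, against 3.31% of all 35116 windows. The CCAAT box (CCAAT on either strand) was found in 6 members, all but MCM2, and in every window of these, against 34.6% of windows. Members and windows are thus counted side by side, and MCM7 counts once among the members. No E2F-type match was in the windows of MCM9 and MCM10, which says only that these letters are not there.

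MCM6 is shown in full upstream of its start because its window holds 2 copies of the same stretch, in each of which matches on both strands overlap, and its transcript was among those that fell with Nutlin. These are the 250 bases before the start, on the minus strand at chr2:135876444-135876693, with the copies in capitals.
MCM6: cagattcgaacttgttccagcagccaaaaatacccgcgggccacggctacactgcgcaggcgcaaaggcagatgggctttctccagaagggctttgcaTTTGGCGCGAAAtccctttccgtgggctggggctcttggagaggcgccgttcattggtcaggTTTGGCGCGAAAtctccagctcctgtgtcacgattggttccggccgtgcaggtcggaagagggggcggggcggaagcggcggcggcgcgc

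For the other members 30 bases around the match nearest the start are given, with the E2F-type letters in capitals, to show that MCM2, MCM3 and MCM7 carry TTTCGCGC and MCM8 carries TTTGGCGC, in different flanks. In MCM2 the capitals span overlapping matches on both strands, and in MCM8 the match is on the opposite strand. MCM2 lies at chr3:127598404-127598433 on the plus strand, MCM3 at chr6:52284728-52284757 and MCM7 at chr7:100101388-100101417 on the minus strand, and MCM8 at chr20:5950667-5950696 on the plus strand.
MCM2: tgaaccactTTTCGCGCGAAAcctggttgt
MCM3: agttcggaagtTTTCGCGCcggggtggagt
MCM7: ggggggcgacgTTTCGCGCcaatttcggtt
MCM8: ggatcactgaaGCGCCAAAaaagaatttag

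Values are on the deposited variance-stabilised log2 scale, and a difference is given on it with its standard error (SE) from limma. A member was called when its adjusted p (Benjamini-Hochberg over all 14298 genes of a comparison) was under 0.05. Libraries held 6.05 to 23.38 M recovered reads, with a median of 15.93, and the members held from 127 reads (MCM9) to 17269 (MCM7) in a library. The median library is DMSO S-phase replicate 3, whose value of 1 read was the least certain. A smaller value would make it the deepest library and move the median and both upper limits.

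Of the 15 libraries 2 stand apart, and a result that they change is given with and without them. CDKN1A, which encodes p21, and MDM2 check the Nutlin label: CDKN1A was at 11.47 and 11.45 in DMSO asynchronous replicates 1 and 2 and between 13.51 and 13.59 in the Nutlin asynchronous libraries, but at 14.10 in the library labelled DMSO asynchronous replicate 3. MDM2 was at 12.44, 12.50 and 14.77 in the same DMSO libraries. That library was also the highest of all 15 for 13 of 14 epithelial markers and for 8 of 8 luminal breast markers, with a summed epithelial level of 42109 normalised reads against 12599 to 17641 in the other libraries. In it ESR1 was at 1434.1 normalised reads against at most 22.6 elsewhere, TFF1 at 1226.0 against 5.3 and KRT19 at 7826.1 against 33.9. It also held the bone and mesenchymal markers SPARC (11653.3) and VIM (27807.8), at the lowest level of all libraries. Which cells it holds was not tested. Of 12 bone and mesenchymal markers, 10 had a median above 100 normalised reads and TWIST1 had 0 reads in every library. The library labelled DMSO S-phase replicate 2 had the fewest reads, 6.05 M, and the highest COL1A1, 9927.1 normalised reads against a median of 2874.6. The part of these markers in the results on MCM genes was not tested.

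**Figure D1:**
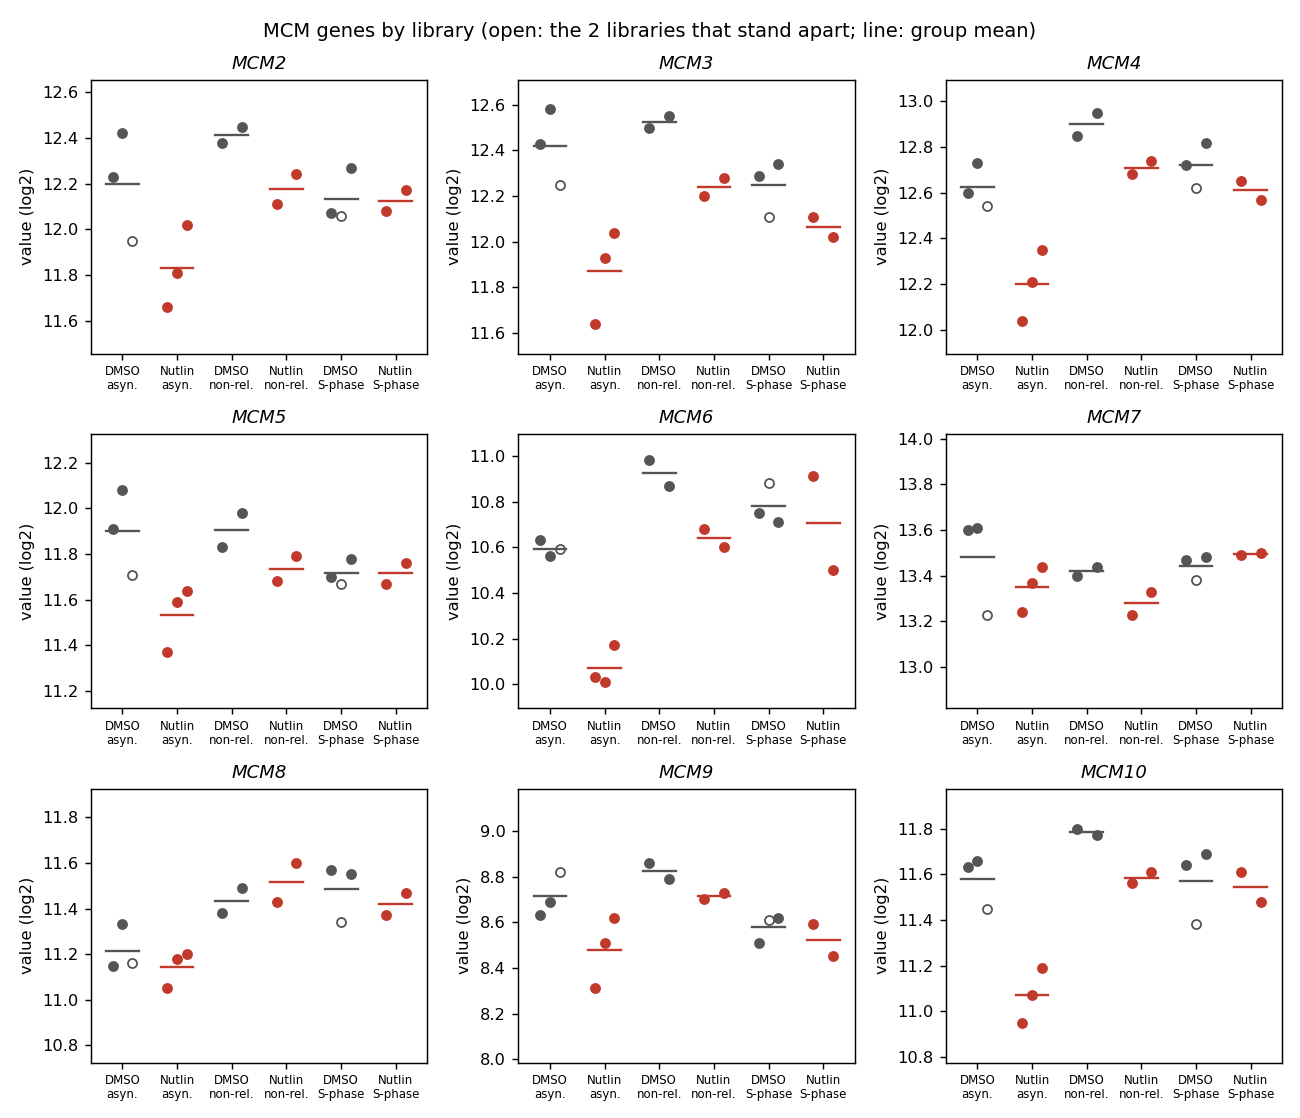
Each panel plots 1 MCM gene, with its deposited log2 value in every library on the vertical axis (1.2 units high in each panel) and the 6 groups along the horizontal axis. Filled points are libraries, open points the 2 libraries that stand apart, and lines group means. Nutlin asynchronous is the lowest group for every member except MCM7.

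In asynchronous cells 4 of the 9 MCM genes fell with Nutlin: MCM3, MCM6, MCM10 and MCM4, by 0.42 to 0.55 on the log2 scale, which is 1.34-fold to 1.47-fold lower. None was called higher, and the other 5 members also had negative differences. Among all genes tested 0.546% were called lower and 1.91% higher, and the median difference of the 9 members was -0.37 against -0.02 for all genes. In 6 members the 3 Nutlin libraries all lay below the 3 DMSO libraries, as they did for 9.64% of all genes. RNA from a whole culture cannot tell fewer cells in a given cycle phase from less transcript per cell.

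Of the hexamer genes, MCM3 read 12.43, 12.58 and 12.25 in the DMSO libraries and 11.64, 11.93 and 12.04 in the Nutlin libraries. The groups did not overlap, and the lowest DMSO value came from the library labelled DMSO asynchronous replicate 3. The difference was -0.55 ± 0.11 (SE; adjusted p = 0.0153, limma), or -0.64 when the 2 outlying libraries were left out (adjusted p = 7.30e-04).

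MCM6 read 10.63, 10.56 and 10.59 with DMSO and 10.03, 10.01 and 10.17 with Nutlin. Both groups were tight for MCM6, and the library labelled DMSO asynchronous replicate 3 sat between the other DMSO libraries. The difference was -0.52 ± 0.10 (SE; adjusted p = 0.00894, limma) and -0.53 without both libraries.

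MCM4 values were 12.60, 12.73 and 12.54 with DMSO against 12.04, 12.21 and 12.35 with Nutlin. Again no Nutlin library reached a DMSO library. Its difference was -0.42 ± 0.09 (SE; adjusted p = 0.0254, limma), or -0.46 with those libraries left out (adjusted p = 0.00425).

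MCM10, the activation factor, stood at 11.63, 11.66 and 11.45 with DMSO and at 10.95, 11.07 and 11.19 with Nutlin. The groups were separated by more than the range of either one. It fell by 0.51 ± 0.10 (SE; adjusted p = 0.0096, limma), and the difference was -0.58 without both libraries (adjusted p = 1.97e-04).

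MCM2 and MCM5, the other hexamer genes with differences near this size, did not pass with all libraries. MCM2 was at 12.23, 12.42 and 11.95 with DMSO and 11.66, 11.81 and 12.02 with Nutlin, so that 1 Nutlin library lay above the library labelled DMSO asynchronous replicate 3. Its difference was -0.37 ± 0.12 (SE; adjusted p = 0.158, limma). MCM5 was at 11.91, 12.08 and 11.71 with DMSO and 11.37, 11.59 and 11.64 with Nutlin, without overlap, a difference of -0.36 ± 0.10 (SE; adjusted p = 0.09). With the 2 outlying libraries left out, MCM2 (-0.49, adjusted p = 0.00676) and MCM5 (-0.46, adjusted p = 0.00524) passed, which brought the count to 6 of 9, where 2.46% of all genes were called lower.

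MCM7 was the hexamer gene with the smallest difference. It was at 13.60, 13.61 and 13.23 with DMSO and at 13.24, 13.37 and 13.44 with Nutlin, so the groups overlapped through the library labelled DMSO asynchronous replicate 3, the lowest of the 6. The difference was -0.13 ± 0.10 (SE; adjusted p = 0.722, limma; 95% interval -0.35 to 0.09), and -0.25 without both libraries (adjusted p = 0.0505). A change as large as that of MCM3 lies outside this interval, whereas a smaller fall lies within it.

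The recombination helicase genes did not pass in either fit. MCM8 was at 11.15, 11.33 and 11.16 with DMSO and 11.05, 11.18 and 11.20 with Nutlin, with overlapping groups and a difference of -0.07 ± 0.09 (SE; adjusted p = 0.883, limma; 95% interval -0.26 to 0.12). MCM9, the least abundant member, was at 8.63, 8.69 and 8.82 with DMSO and 8.31, 8.51 and 8.62 with Nutlin. Its groups lay apart by a narrow gap, and the difference of -0.24 ± 0.10 (SE; adjusted p = 0.319, limma) was -0.18 without both libraries (adjusted p = 0.35).

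**Figure D2:**
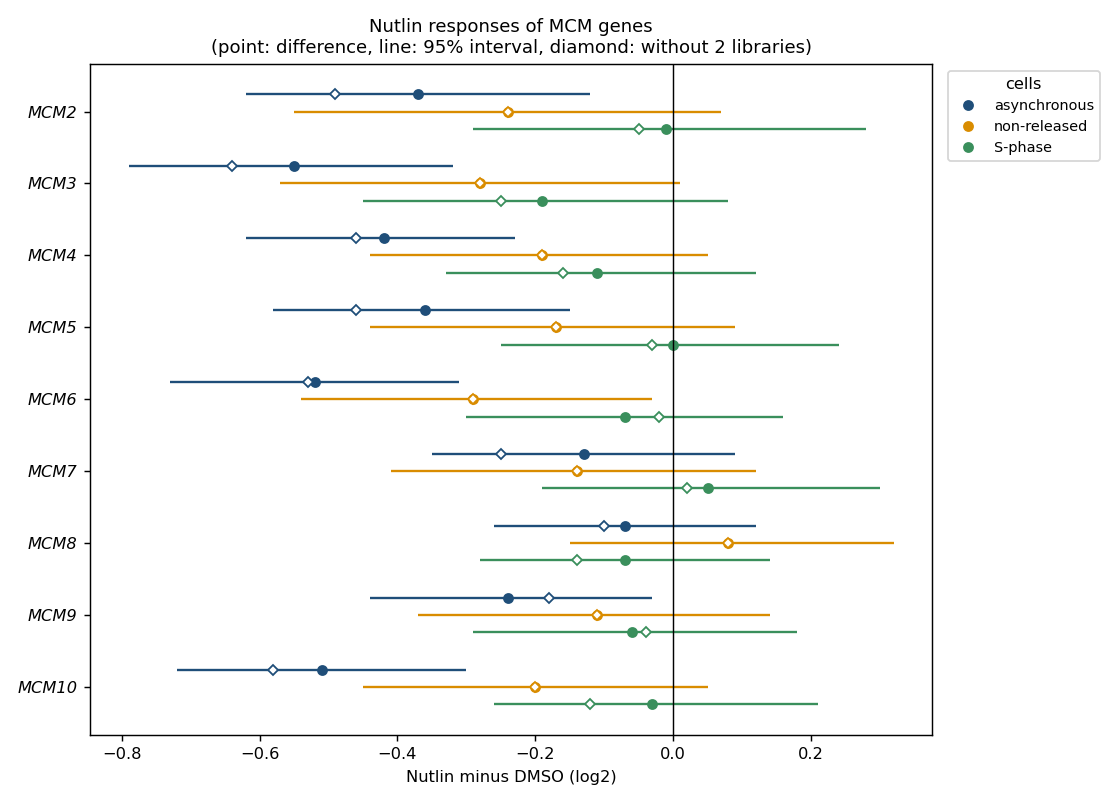
The horizontal axis gives the Nutlin minus DMSO difference (log2) of each of the 9 genes, by cell state. Points are differences with all 15 libraries, lines their 95% intervals and diamonds the differences without the 2 libraries that stand apart. The asynchronous points of MCM3, MCM6 and MCM10 lie at -0.55, -0.52 and -0.51, and all S-phase points lie between -0.19 and 0.05.

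The direction in asynchronous cells did not depend on 1 library, but the calls did. With each of the 6 asynchronous libraries left out in turn, all 9 differences stayed below 0, from -0.64 for MCM3 to -0.01 for MCM8. Leaving out a library of another state cannot move these differences, only their SE and adjusted p. Without Nutlin asynchronous replicate 1, the lowest library for 7 members (MCM2, MCM3, MCM4, MCM5, MCM8, MCM9 and MCM10), no member passed: MCM6 was at -0.50 (adjusted p = 0.059), MCM10 at -0.45 (0.0712), MCM3 at -0.44 (0.0898) and MCM4 at -0.34 (0.164), all from limma. MCM6 alone passed without DMSO asynchronous replicate 2, the highest asynchronous library for MCM2, MCM3, MCM4, MCM5, MCM7, MCM8 and MCM10, and MCM3 and MCM10 passed without Nutlin asynchronous replicate 2. Without the library labelled DMSO asynchronous replicate 3 the count was 6.

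**Figure D3:**
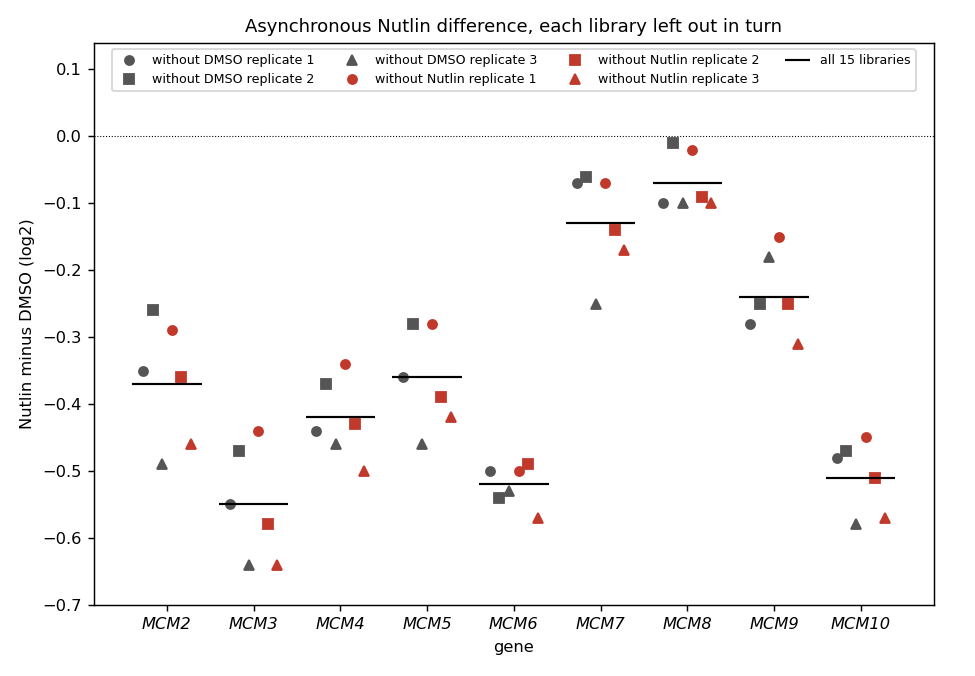
The vertical axis gives the asynchronous Nutlin minus DMSO difference (log2) of each MCM gene, and each point leaves out 1 of the 6 asynchronous libraries, while the black line is the difference with all 15. Every point lies below 0, and those of MCM6 stay between -0.57 and -0.49.

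In non-released cells, the same 9 genes had 0 calls in limma, although 8 of the 9 differences were negative. The median was -0.19, against -0.02 for all genes, and all genes gave 0.0420% called lower and 0.874% higher. In 8 members both Nutlin libraries lay below both DMSO libraries, which held for 25.7% of all genes at 2 against 2 libraries. At an unadjusted p under 0.05 there was 1 member, MCM6, beside 6.67% of all genes. MCM6 read 10.98 and 10.87 with DMSO and 10.68 and 10.60 with Nutlin, a difference of -0.29 ± 0.12 (SE; adjusted p = 0.597, limma; 95% interval -0.54 to -0.03). MCM3 had 12.50 and 12.55 against 12.20 and 12.28, a difference of -0.28 ± 0.14 (SE; adjusted p = 0.785). MCM8 was the only member with a positive value, 0.08 ± 0.11 (SE).

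In S-phase cells 0 members were called in limma and 0 had an unadjusted p under 0.05, beside 12.6% of all genes at that level. Of all genes 0.161% were called lower and 1.84% higher with Nutlin. The median over the members was -0.06, and the differences ran from -0.19 ± 0.12 (SE) for MCM3 (adjusted p = 0.55; 95% interval -0.45 to 0.08) to 0.05 ± 0.11 for MCM7. MCM6 read 10.75, 10.88 and 10.71 with DMSO and 10.91 and 10.50 with Nutlin. Its Nutlin libraries thus spanned all the DMSO libraries, and leaving out 1 or the other moved its difference between -0.28 and 0.13. MCM10 read 11.64, 11.38 and 11.69 with DMSO and 11.61 and 11.48 with Nutlin, overlapping at a difference of -0.03 ± 0.11 (SE; 95% interval -0.26 to 0.21).

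The Nutlin responses in the 3 states have DMSO libraries of their own, and their differences were tested directly. The states also differ in exposure, with Nutlin kept for 4 h after release in S-phase cells and for an unknown time in asynchronous cells. State and length of exposure therefore cannot be told apart in these tests. No member passed in any of the 3 tests in limma, nor did any other gene (0% called in each). Between S-phase and asynchronous cells the response of MCM10 differed by 0.49 ± 0.14 (SE; adjusted p = 0.836) and that of MCM6 by 0.45 ± 0.15 (adjusted p = 0.836), the S-phase response being the less negative. At an unadjusted p under 0.05 there were 5 members (MCM3, MCM4, MCM5, MCM6 and MCM10), against 5.5% of all genes. MCM8 differed by 0.00 ± 0.13 (SE). Between non-released and asynchronous cells 0 members had an unadjusted p under 0.05, and MCM10 had the largest difference, 0.31 ± 0.15 (adjusted p = 1). Between S-phase and non-released cells there were again 0 members at that level, and the differences ran from -0.15 to 0.23.

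Without Nutlin few of the 9 genes were called between states. Between non-released and asynchronous cells 1 member was below 0, and the median was 0.20 against -0.01 for all genes. In non-released against asynchronous cells MCM6 was called higher, at 0.33 ± 0.11 (SE; adjusted p = 0.0308, limma), with 10.98 and 10.87 against 10.63, 10.56 and 10.59. No member was called lower, while 16.9% of all genes were called higher and 33.9% in either direction. In 4 members (MCM4, MCM6, MCM8 and MCM10) the non-released libraries all lay above the asynchronous ones, as for 28.7% of all genes. MCM4 came close, at 0.28 ± 0.10 (adjusted p = 0.0509), and MCM7 stood at -0.06 ± 0.11. The MCM6 call was lost when either DMSO non-released library was left out (0 members called). Without DMSO asynchronous replicate 2 MCM4 was called in its place. MCM4 joined MCM6 without DMSO S-phase replicate 3, Nutlin asynchronous replicate 1 or Nutlin asynchronous replicate 3 (2 called), and MCM4 and MCM8 did so without the library labelled DMSO S-phase replicate 2 (3 called).

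In S-phase against asynchronous cells, both with DMSO, MCM8 was the member called higher. It read 11.57, 11.34 and 11.55 against 11.15, 11.33 and 11.16, a difference of 0.27 ± 0.09 (SE; adjusted p = 0.0345, limma), with 14.1% of all genes called higher and 13.6% lower. The groups of MCM8 did not overlap, but DMSO S-phase replicate 2 (11.34) and DMSO asynchronous replicate 2 (11.33) nearly met. In 2 members (MCM6 and MCM8) the S-phase libraries all lay above the asynchronous ones, as for 17.9% of all genes. In 1 member (MCM9) they all lay below, as for 17.6% of all genes. Differences of the hexamer genes ran from -0.18 ± 0.10 (MCM5) to 0.18 ± 0.10 (MCM6), and none passed. The call on MCM8 was lost without DMSO asynchronous replicate 1, DMSO S-phase replicate 1 or DMSO S-phase replicate 3. It was also lost without the library labelled DMSO asynchronous replicate 3. There MCM5 was the 1 call, in the other direction, lower in S-phase cells (-0.28, adjusted p = 0.0424, limma). S-phase against non-released cells gave 0 calls in limma, with 2 members (MCM3 and MCM9) at an unadjusted p under 0.05 and 21.1% of all genes. Of all genes 4.11% were called higher and 2.89% lower there. In 6 members the S-phase libraries lay below both non-released ones, as for 20.1% of all genes.

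Among Nutlin-treated cells the non-released libraries had more MCM transcript than the asynchronous ones. Of the 9 members 5 were called higher: MCM6 by 0.57 ± 0.11, MCM4 by 0.51 ± 0.10, MCM10 by 0.51 ± 0.11, MCM8 by 0.38 ± 0.10 and MCM3 by 0.37 ± 0.12 (SE; limma, adjusted p from 0.00151 for MCM6 to 0.0325 for MCM3). The background was high, with 17.3% of all genes called higher and 17.2% lower. In 8 members (all but MCM7) the groups did not overlap, as for 35.5% of all genes. MCM2 followed at 0.34 ± 0.13 (adjusted p = 0.0582), and leaving out both outlying libraries brought it past the threshold (adjusted p = 0.0101), so that 6 of 9 were called beside 25.2% of all genes. The Nutlin asynchronous libraries of this comparison also serve in the one of Nutlin with DMSO above. Whether the rise differed from that with DMSO is the same test as the one between responses above. There 0 members had an unadjusted p under 0.05 in limma. MCM7 was the 1 member with a negative value, -0.07 ± 0.11 (95% interval -0.32 to 0.17). MCM5, with means of 11.73 against 11.54, was not called either, and members were not tested against each other. Without Nutlin non-released replicate 2 the count was 3, namely MCM4, MCM6 and MCM10.

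In S-phase against asynchronous Nutlin cells 3 members were called higher, MCM6 (0.64 ± 0.11, adjusted p = 0.00127), MCM10 (0.48 ± 0.11, adjusted p = 0.0063) and MCM4 (0.41 ± 0.10, adjusted p = 0.0109; SE, limma). Of all genes 13.4% were called higher and 10.6% lower. In 7 members the groups did not overlap, as for 30.1% of all genes. Without both libraries that stand apart MCM2 and MCM8 joined them, giving 5 of 9 beside 21.7% of all genes. MCM6 rests in part on Nutlin S-phase replicate 1. Without that library it was the 1 member still called, at 0.43 (adjusted p = 0.0219). Between S-phase and non-released Nutlin cells 0 members were called in limma and 0 had an unadjusted p under 0.05, with 1.60% of all genes called higher, 0.832% lower and 15.8% at the unadjusted level.

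**Figure D4:**
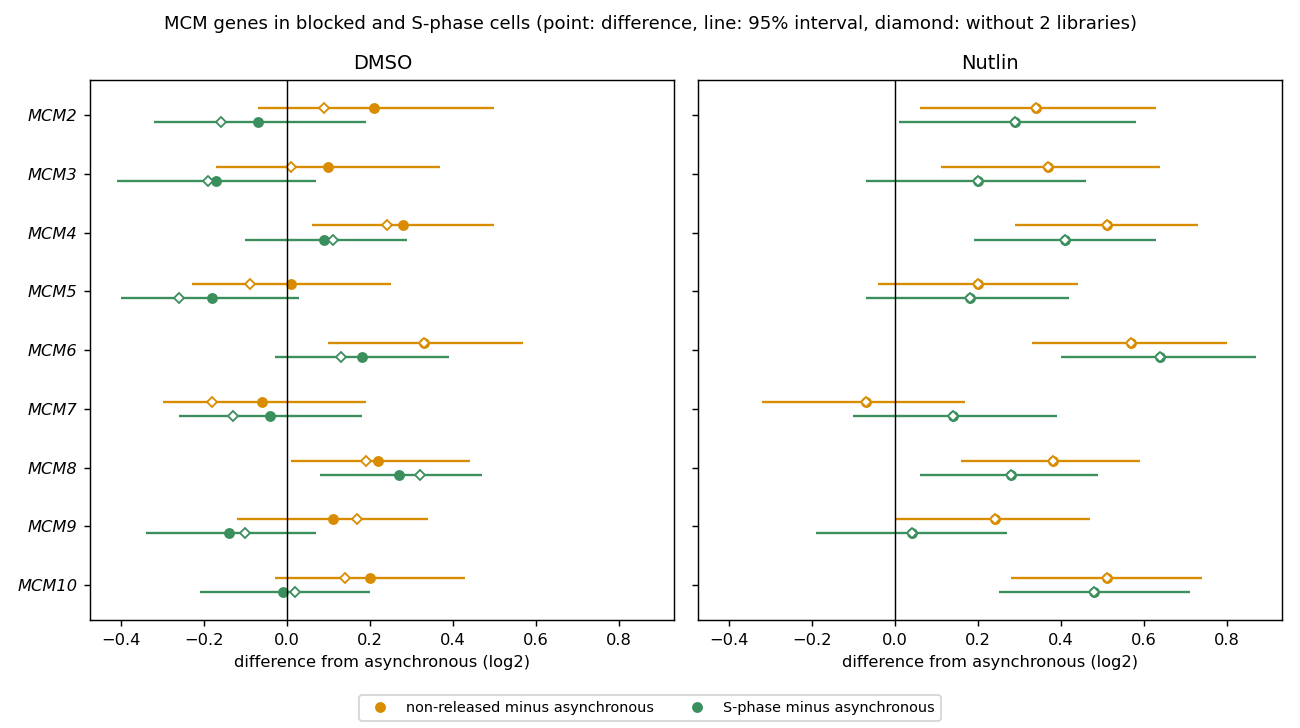
The horizontal axes give the differences (log2) of non-released and of S-phase cells from asynchronous cells for each MCM gene, with DMSO on the left and Nutlin on the right. Points use all 15 libraries, lines are 95% intervals and diamonds leave out the 2 libraries that stand apart. With Nutlin, MCM4, MCM6 and MCM10 lie between 0.41 and 0.64 in both comparisons, and MCM7 lies at -0.07 and 0.14.

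Ordering the 6 groups by their mean over all libraries gave DMSO non-released as the highest group for 7 members (all but MCM7 and MCM8). Nutlin asynchronous was the lowest for 8 members (all but MCM7). Shares of all genes with these highest and lowest groups were not computed. For MCM5 the highest place rested on a difference from DMSO asynchronous of 0.0099, which was -0.09 without both outlying libraries. MCM7 was highest in Nutlin S-phase (13.49 and 13.50), but DMSO asynchronous replicates 1 and 2 read 13.60 and 13.61. The means of MCM6 spanned 0.85 on the log2 scale, those of MCM10 0.71, MCM4 0.70, MCM3 0.65 and MCM2 0.58. MCM8 (0.38), MCM5 (0.37) and MCM9 (0.35) spanned less, and MCM7 the least, 0.22. Between neighbouring groups in this order the libraries mostly overlapped. In MCM7 all 5 neighbouring pairs overlapped. In MCM6 only Nutlin asynchronous was separate, lying below DMSO asynchronous, the next group up. MCM2, MCM4, MCM5 and MCM10 had Nutlin asynchronous clear of Nutlin S-phase, the next group up for each. MCM4 also had DMSO non-released clear of all other groups. MCM3 had Nutlin non-released clear of Nutlin S-phase, and MCM8 had Nutlin S-phase clear of DMSO asynchronous. In MCM9 and MCM10 DMSO non-released lay clear of Nutlin non-released, and in MCM9 DMSO asynchronous lay narrowly clear of DMSO S-phase (8.63 against 8.62). Of all genes 30.1% had Nutlin S-phase clear above Nutlin asynchronous, and 25.7% DMSO non-released above Nutlin non-released. DMSO non-released was clear above DMSO S-phase in 20.1%, Nutlin non-released above Nutlin S-phase in 24.4%, and DMSO asynchronous above DMSO S-phase in 17.6% and above Nutlin asynchronous in 9.64%. The share for the MCM8 pair was not computed.

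Levels per length put the members in order of abundance, on the scale of reads per kb of the longest coding transcript per M reads (RPKM). MCM7 was the most abundant, with a median of 225.1 RPKM over the 15 libraries (range 186.2 to 245.1). MCM3 (94.3) and MCM4 (92.8) came next and changed places between libraries, followed by MCM2 (74.7) and MCM5 (58.7). MCM10 had a median of 40.8, MCM6 26.7, MCM8 21.1 and MCM9 4.1. With the median transcript length in place of the longest, MCM7 stayed first (234.8) and MCM9 last (13.1) in all 15 libraries, but MCM2 (153.0) and MCM5 (132.0) passed MCM3 (98.2). The order within MCM2 to MCM5 therefore depends on the transcript length used, and that of MCM6, MCM8 and MCM10 does as well.

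Within the hexamer, the share of each gene in the summed RPKM of MCM2 to MCM7 does not depend on the scaling between libraries. MCM7 held 38.3% ± 1.7 (SD, n = 3) in DMSO asynchronous cells and 43.7% ± 1.2 (SD, n = 3) in Nutlin asynchronous cells, with ranges of 36.8 to 40.1 and 42.6 to 44.9 that do not overlap. MCM3 went the other way, from 17.6% ± 0.4 to 14.9% ± 0.8 (SD, n = 3 each), also without overlap. MCM6, the smallest share, was at 4.2% ± 0.5 and 3.5% ± 0.2, with overlapping ranges. In non-released cells MCM7 had its smallest shares, 34.6% ± 0.3 with DMSO and 36.0% ± 0.3 with Nutlin (SD, n = 2 each), and in S-phase cells it held 38.6% ± 0.8 (n = 3) and 40.9% ± 0.7 (n = 2). Nutlin libraries thus had the larger MCM7 share in all 3 states, with no overlap in any of them. How often shares of other genes do not overlap was not computed. A larger share is not more MCM7 transcript. Its mean RPKM with DMSO and Nutlin was 222.8 and 203.5 in asynchronous cells. It was 236.4 and 211.0 in non-released cells, and 226.8 and 226.0 in S-phase cells. The shares with the median transcript length were lower, 29.3% and 33.7% in asynchronous cells, with the same direction.

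**Figure D5:**
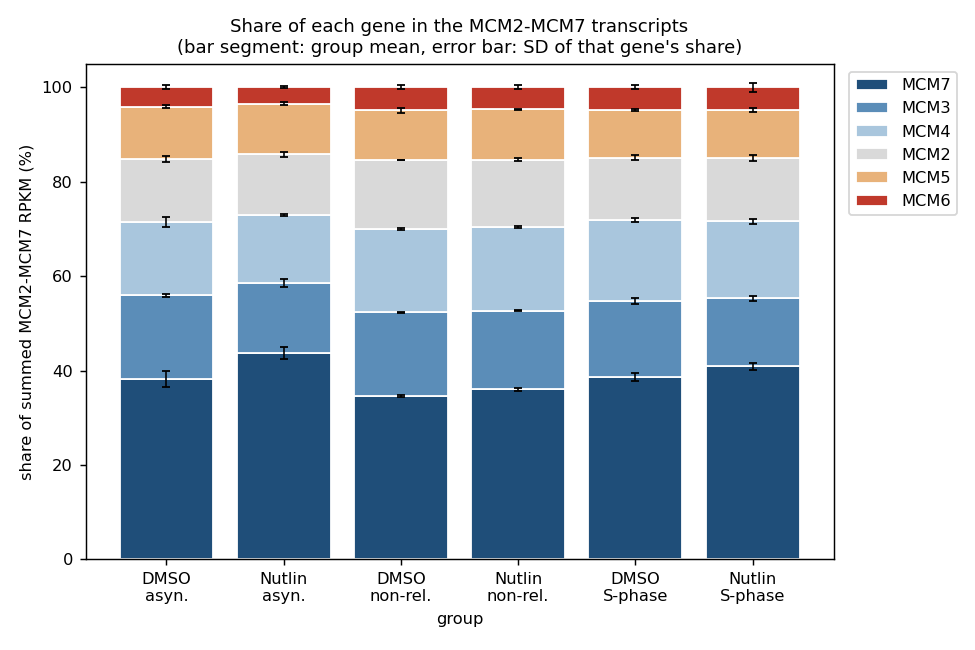
Bars give the mean share (%) of each gene in the summed RPKM of MCM2 to MCM7 for the 6 groups, with the SD of each gene's share at the top of its segment. MCM7 is the largest segment in every group, from 34.6% in DMSO non-released to 43.7% in Nutlin asynchronous cells.

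Correlations across the 15 libraries describe how the members moved together, and they share library depth and scaling. MCM2 to MCM6 correlated among themselves with a median Pearson's r of 0.88 over 10 pairs (range 0.54 to 0.93). MCM7 with those 5 genes had a median of 0.48, and 0.25 over the 6 group means. For deviations from the group means, MCM7 correlated with MCM2, MCM3, MCM4 and MCM5 at 0.88, 0.83, 0.69 and 0.87. MCM6 stood apart in these deviations, at -0.09, 0.08, 0.10 and -0.20 with the same 4 genes and at -0.03 with MCM7. MCM10 with the 6 hexamer genes had a median of 0.88 (range 0.43 to 0.97), and the 15 pairs within MCM2 to MCM7 had 0.70. MCM8 had 0.53 and MCM9 0.65.

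Outside the family, the genes most like the mean profile of MCM2 to MCM7 over the 6 group means were DCLRE1B (r = 0.986), RASEF (0.977), AIF1L (0.974), CHRNA5 (0.972) and SEMA5A (0.972), out of 6320 genes whose means spanned at least 0.5. Over the 15 libraries their r was 0.80, 0.54, 0.72, 0.91 and 0.35. For MCM10 they were SEMA5A (0.989), RASGRP1 (0.987), SELENBP1 (0.987), RASEF (0.987) and EZH2 (0.986), with EZH2 at 0.90 over libraries. MCM8 was most like NWD1, EIF4EBP2, DGKQ, TP53I11 and RHPN1 (0.996 to 0.985), and MCM9 most like INSIG1, ZNF93, KIAA0513, ZNF367 and FAM53C (0.979 to 0.969). These are descriptions over 6 points that share their libraries.

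Of the factors that load and hold the hexamer, 2 of 13 origin licensing genes fell with Nutlin in asynchronous cells and none rose (median -0.11). Of all genes 0.546% were called lower and 1.91% higher there, or 2.46% and 3.75% without both outlying libraries. These shares also serve the asynchronous counts of the lists below. ORC1, the cell cycle regulated subunit of the origin recognition complex, read 10.23, 10.22 and 9.99 with DMSO and 9.43, 9.65 and 9.71 with Nutlin. It fell by 0.55 ± 0.09 (SE; adjusted p = 0.00291, limma), and CDC6, the loading ATPase, by 0.39 ± 0.10 (adjusted p = 0.0466). CDT1, which brings the hexamer to the origin, was at -0.46 ± 0.14 (adjusted p = 0.14), its inhibitor GMNN at -0.25 ± 0.11 (0.359) and MCMBP, which binds MCM subunits and keeps new complexes stable, at -0.35 ± 0.10 (0.0951). Without both libraries that stand apart 5 of the 13 were called lower: these 2 and CDT1, GMNN and MCMBP. In non-released cells with Nutlin, against asynchronous ones, 5 of the 13 were called higher and 1 lower, beside 17.3% and 17.2% of all genes. ORC1 (0.70 ± 0.10), CDC6 (0.79 ± 0.11), CDT1 (0.75 ± 0.16) and GMNN (0.42 ± 0.12) were among those that rose, whereas MCMBP was at -0.18 ± 0.11 (adjusted p = 0.234). MCMBP fell in the same comparison with DMSO, by 0.33 ± 0.11 (adjusted p = 0.0311), where MCM6 rose.

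Among 15 genes of helicase activation 1 fell in asynchronous cells with Nutlin, GINS2, a GINS subunit, by 0.53 ± 0.12 (SE; adjusted p = 0.0351, limma), and none rose (median -0.19). GINS2 read 10.44, 10.35 and 9.92 with DMSO and 9.70, 9.75 and 9.68 with Nutlin. CDC45, the other part of the active helicase, was at -0.13 ± 0.10 (adjusted p = 0.702), the kinase gene CDC7 at -0.24 ± 0.11 (0.394) and its activator DBF4 at -0.35 ± 0.12 (0.191). The count was 5 of 15 without both libraries that stand apart. CDC45 rose in non-released against asynchronous cells with DMSO (0.51 ± 0.11, adjusted p = 0.00412), as did CDC7 (0.46 ± 0.12, adjusted p = 0.0108), while DBF4 fell (-0.45 ± 0.13, adjusted p = 0.0192).

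Of 19 partners of the helicase at the fork, CLSPN, which links the fork to the checkpoint kinase CHEK1, was the 1 called lower (-0.42 ± 0.09, SE; adjusted p = 0.0227, limma), and 6 were without both libraries. HROB, the loader of the MCM8-MCM9 helicase (listed as C17orf53), was at 0.23 ± 0.12 (adjusted p = 0.52).

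Of 20 genes of E2F and DREAM control, 3 fell with Nutlin in asynchronous cells, E2F2 by 1.00 ± 0.15, E2F8 by 0.56 ± 0.11 and E2F1 by 0.50 ± 0.11, and 1 rose, E2F7, by 0.61 ± 0.11 (SE; limma, adjusted p from 0.00122 to 0.0217). E2F1 and E2F2 are activators, E2F7 and E2F8 repressors. Of 20 other G1/S genes 9 fell and 1 rose, beside 0.546% and 1.91% of all genes. Their median was -0.38, beside -0.40 for MCM2 to MCM7. Without both outlying libraries 15 of the 20 were called lower, at a median of -0.48. MSH6 (-0.67 ± 0.09), ATAD2 (-0.52 ± 0.09), DTL (-0.50 ± 0.09) and UNG (-0.57 ± 0.11) had the smallest adjusted p, and PCNA, which p53 is known to activate, rose by 0.50 ± 0.10 (adjusted p = 0.0155). Of 20 genes of G2 and mitosis 0 were called (median -0.28), and 14 were called lower without both libraries. The p53 targets, 18 in number, gave 14 called higher in asynchronous, 9 in non-released and 14 in S-phase cells. Of all genes 1.91%, 0.874% and 1.84% were called higher in these states. Without both outlying libraries 18 targets were called in each state, beside 3.75%, 2.79% and 3.37% of all genes.

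In non-released and S-phase cells none of the origin licensing, helicase activation and fork genes was called with Nutlin when all libraries were used. Without both outlying libraries 1 was, POLE2, a subunit of the leading-strand polymerase, in S-phase cells (-0.39, adjusted p = 0.0436, limma; -0.28 with all libraries). POLE2 is named because of that call, after its value was seen. ORC1 was at -0.33 ± 0.11 (SE; adjusted p = 0.316, limma) in non-released and -0.20 ± 0.10 (0.437) in S-phase cells, CDC6 at -0.07 ± 0.12 and 0.07 ± 0.11, CDT1 at -0.16 ± 0.18 and -0.20 ± 0.16, and GINS2 at -0.24 ± 0.15 and 0.03 ± 0.14. E2F7 and PCNA were called higher in S-phase cells.

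Neighbours on the other strand were looked up for the 7 members with a promoter window, and not for MCM4 and MCM5. Some of the 7 share a promoter region with such a gene. The starts in RefSeq lie 180 bases (MCM2 and TPRA1), 246 bases (MCM7 and AP4M1) and 119 bases (MCM8 and TRMT6) apart. None of these neighbours passed with Nutlin in asynchronous cells. TPRA1 was at -0.09 ± 0.10 (SE; adjusted p = 0.852, limma), AP4M1 at -0.15 ± 0.10 (0.648) and TRMT6 at -0.00 ± 0.14 (0.999). The sources do not say whether reads were counted by strand, so reads from overlapping transcripts of such pairs cannot be told apart.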

How the data were processed

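The series has 15 RNA-seq libraries labelled as U2OS cells, each from 1000 ng of RNA. Per the labels' protocols, sequencing gave 50 nt single reads. The values are variance-stabilised log2 values deposited by the authors in 1 table. Tools named in the submitters' processing notes are DESeq2 1.10.1, HTSeq, TopHat and CASAVA 1.8.2, with hg19 as the build, in no stated role; no source used here gives the annotation. The scale compresses differences of genes with few reads. Groups come from the library titles.

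Reads were recovered by inverting the transformation: a gene with 0 reads stands at 4.859, and at least 98.32% of values per library lay within 0.05 of a whole read. Fewer than 3 reads is 0.128 to 0.496 reads per M reads, for counting error only. The median depth was 15.93 M reads.

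The tests used limma 3.58.1 (R 4.3.3): 1 mean per group over 15 libraries, eBayes with a trend, two-sided, Benjamini-Hochberg within each of 12 comparisons, calls at adjusted p under 0.05. A gene entered (14298 did) if it exceeded the table's lowest value by 1 unit in 2 or more libraries. The procedure was also run on simulated reads, with the same spread setting for every gene and no libraries that stand apart. That run therefore does not show how the procedure does on these libraries. Intervals are 95% from the same fit. Alternatives were other filters (none, or 2 units), voom on recovered reads, median centring, the compared groups alone, no trend, a replicate block, and libraries left out.

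Named genes are all 9 members, fixed partners, up to 4 called genes per list by smallest adjusted p, checks of the Nutlin label, the 5 genes most like each profile and head-to-head neighbours within 1000 bases. The members and lists were chosen with earlier results of these data known. Transcript lengths came from GENCODE v29 on GRCh38 and promoters from RefSeq on GRCh38.p14, so sequences and values come from different builds. MCM4 and MCM5 promoters are not shown here. Calls in the list of genes that act with MCM8 and MCM9 are not reported here.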

Additional observations from a re-analysis of the deposited data

How the results depend on the processing

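Over 9 members and 12 comparisons, 2484 alternative differences were computed, of which 2376 kept direction and side of the threshold, 31 lost a call, 28 gained one and 49 changed sign. Many of the 2484 could not change direction. A library left out from outside the comparison, another filter or no trend leaves the difference itself as it was. Changes of sign fell on 21 of 108 results, none of them called and none larger than 0.08 with all libraries. In asynchronous cells 4 members were called lower with Nutlin, 2 (MCM6 and MCM10) when only those 6 libraries were fitted, 3 (MCM3, MCM6 and MCM10) after median centring, and 0 to 6 with 1 library left out. Non-released against asynchronous DMSO cells gave 1 call, 2 with the stricter filter, with voom or with the replicate block, 0 after centring, and 0 to 3 with 1 library left out. S-phase against asynchronous DMSO cells gave 1 call, 0 after centring or with the compared groups alone, and 0 to 1 with 1 library left out. Non-released against asynchronous Nutlin cells gave 5, and 3 to 6 with 1 library left out. S-phase against asynchronous Nutlin cells gave 3, 5 with the compared groups alone or without both libraries that stand apart, and 1 to 4 with 1 library left out. Where a library left out made an arm of 1, that library was assumed to vary like the others. Over all genes, calls in the asynchronous Nutlin comparison numbered 273 higher and 78 lower, 180 and 22 with the compared groups alone, 536 and 352 without both libraries that stand apart, and 157 and 13 without Nutlin asynchronous replicate 1. The cause was not tested.

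The labels give replicate numbers no meaning beyond a number, and the pairing they would imply was not used. Deviations from the group means of same-numbered libraries correlated at 0.31, 0.14 and 0.07 in asynchronous cells, where DMSO replicate 2 correlated best with Nutlin replicate 3 (0.22), at 0.32 and 0.32 in non-released and at 0.34 and 0.35 in S-phase cells. All 7 are positive, but they are not 7 independent values. In a group of 2 libraries the deviations mirror each other. The 2 non-released values are therefore equal by construction, and the 2 S-phase values share mirrored Nutlin deviations. The signs are at most a hint from the data and not from the design. With a replicate block the Nutlin count in asynchronous cells was 4, and 6 in non-released against asynchronous Nutlin cells.

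Changes of sign were as follows. In S-phase Nutlin against DMSO, MCM2 went from -0.0088 to 0.0025 after centring and 0.0036 with the replicate block, and MCM5 from -0.0046 to 0.0067 after centring. In non-released against asynchronous DMSO cells MCM5 (0.0099) was -0.01 after centring and -0.09 without both libraries. In S-phase against asynchronous DMSO cells MCM10 (-0.0082) was 0.02 with voom and 0.02 without both libraries. MCM7 in the response of non-released minus asynchronous cells (-0.02) was 0.11 without both libraries. MCM8 in the response of S-phase minus asynchronous cells (0.0016) was -0.03 with voom, -0.01 after centring and -0.04 without both libraries.

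With 1 library left out, the ranges that crossed 0 were, for Nutlin against DMSO, -0.0026 to 0.17 (MCM8, non-released) and, in S-phase, -0.05 to 0.06 (MCM2), -0.05 to 0.04 (MCM5), -0.28 to 0.13 (MCM6), -0.12 to 0.01 (MCM9) and -0.12 to 0.04 (MCM10). In DMSO they were -0.09 to 0.10 (MCM5) and -0.18 to 0.0072 (MCM7) for non-released against asynchronous, -0.19 to 0.04 (MCM2), -0.16 to 0.03 (MCM7) and -0.07 to 0.09 (MCM10) for S-phase against asynchronous, and -0.0020 to 0.05 (MCM7) and -0.0011 to 0.13 (MCM8) for S-phase against non-released. In Nutlin they were -0.04 to 0.11 (MCM9) for S-phase against asynchronous, and -0.12 to 0.01 (MCM2), -0.08 to 0.03 (MCM5), -0.13 to 0.27 (MCM6) and -0.10 to 0.03 (MCM10) for S-phase against non-released. Between responses they were -0.08 to 0.11 (MCM7, non-released minus asynchronous), -0.07 to 0.05 (MCM8, S-phase minus asynchronous) and -0.01 to 0.13 (MCM9, S-phase minus non-released). Each member had at least 127 reads in every library. The part of depth in calls not made was not tested.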
